A study of Mus musculus with 4 samples.

Results

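Collagens are the proteins that give bone, dentin, tendon, vessel walls and basement membranes their strength. The 35 genes described here include Col27a1, also known from cartilage, and leave out 9 genes of cartilage and of the epithelial anchoring complex. They are all rows of the deposited table of 24972 genes whose symbol has the form of a collagen chain, with Col2a1, Col7a1, Col9a1, Col9a2, Col9a3, Col10a1, Col11a1, Col11a2 and Col17a1 left out. The rule reads symbols and no measured value, though it was set with earlier results of these data known, and all 35 had a mean of at least 1 normalized count and were tested. RNA came from the mandibular dental arch, where the lower teeth form, of mice at embryonic day 17.5. There were 2 libraries from embryos with both wild-type Ascl5 alleles (wild-type 15 and 20) and 2 from embryos with both alleles carrying an Ascl5 variant (mutant 18 and 14). Ascl5 is a transcription factor gene of the achaete-scute family. The sources used here give no strain, sex, litter or nature of the variant. All p-values rest only on the spread between these libraries, with each gene's variance drawn in part from that of other genes. Between the mutant libraries that spread may be technical, and between the wild-type libraries it includes a difference in sex, read from Xist and Ddx3y below.

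Collagen chains wind into a helix that is modified and folded inside the cell, trimmed outside it and then joined to others. Fibrillar collagens form the banded fibres of bone, dentin and connective tissue. Type IV collagens form the sheet of basement membranes, under epithelia and around vessels and muscle. FACIT collagens are fibril-associated and sit on the surface of fibres, and the rest include the beaded filaments of type VI, the short-chain network of type VIII and chains that stay in the cell membrane. In the developing jaw, osteoblasts and odontoblasts lay down a matrix made mainly of type I collagen.

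The libraries summed to between 22134483 and 22578580 normalized counts. Ascl5 was at 21.8 and 37.3 in wild-type 15 and 20 against 10.6 and 12.1 in mutant 18 and 14, and since the effect of the variant on its transcript is not stated, this checks no label. Xist was at 38620 in wild-type 15 and between 5.005 and 12.7 in the other libraries, and the Y-linked Ddx3y was at 0 in wild-type 15 and between 2382 and 3027 in the others, so sex sets wild-type 15 apart. By the root mean square log2 difference over 12484 genes, the nearest libraries were wild-type 20 and mutant 18 (0.319), and wild-type 15 and 20 lay 0.453 apart. Defining genes of the labelled tissue were present in every library. The 5 dental mesenchyme markers (Msx1, Dlx2, Barx1, Pax9 and Lhx8) summed to between 3611 and 5515, and 3 of 5 were lower in mutant with no overlap, against 14% of all genes tested. The dental epithelium genes Sp6, Shh and Amelx were at 952 to 1991, 161 to 684 and 263 to 2421, with Shh lower in mutant and no overlap. Salivary gland markers (Dcpp1, Dcpp2, Dcpp3 and Aqp5) summed to 20.7 and 4.98 in wild type against 44.0 and 732 in mutant 18 and 14. Keratinocyte markers (Krt5, Krt14, Krt1, Krt10, Ivl and Lor) took 0.341% and 0.312% of the counts in wild-type 15 and 20 against 0.567% and 0.899% in mutant 18 and 14, with 4 of 6 higher and no overlap, against 13.4% of all genes tested. Fewer cells of a type and less RNA per cell cannot be told apart in such bulk tissue.

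The 35 genes took 6.47% and 5.97% of all normalized counts in wild-type 15 and 20 against 5.31% and 5.32% in mutant 18 and 14. Type I collagen made up most of this. Per kilobase of coding sequence, the mean level over the 4 libraries was 108400 for Col1a1 and 91910 for Col1a2, followed by Col3a1 at 31890, Col5a2 at 9940, Col6a1 at 8068, Col5a1 at 7995 and Col6a2 at 7493. Col4a1 was at 4571 and Col4a2 at 2594 on that scale, and Col12a1, the highest FACIT gene, at 3459. At the other end were Col28a1 at 14.95, Col6a5 at 12.7, Col6a4 at 3.04, Col4a4 at 2.52 and Col4a3 at 1.34. The neighbours Col5a1 and Col6a1 overlapped in their libraries, as did Col15a1 and Col8a1, while Col1a1, Col1a2 and Col3a1 were far above all others.

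**Figure D1:**
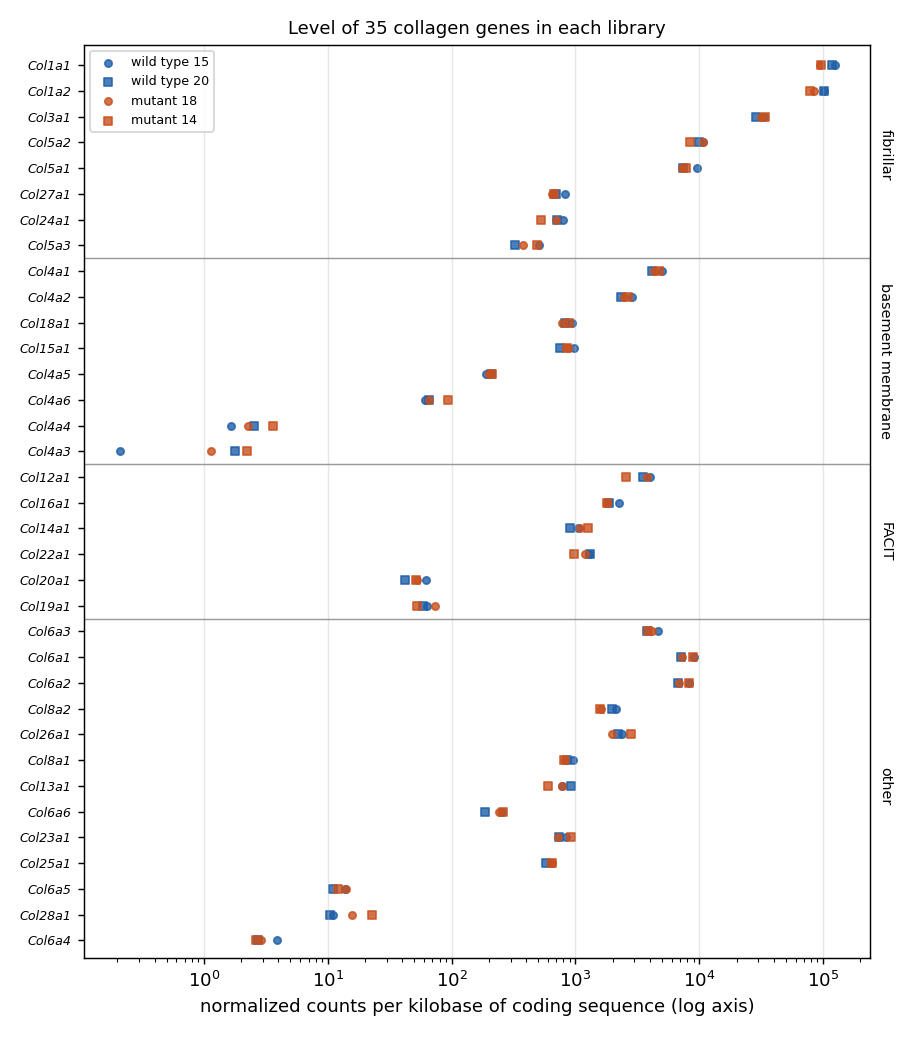
Level of each of the 35 collagen genes in the 4 libraries, in normalized counts per kilobase of coding sequence on a log axis, grouped by type and ordered within a type by mean normalized count; blue marks are wild type and orange marks mutant. Col1a1 and Col1a2 lie furthest right, with both mutant marks left of both wild-type marks, and Col4a3, Col4a4 and Col6a4 lie furthest left.

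None of the 35 genes passed at an adjusted p of 0.05 (limma). Of all 17979 genes tested, 0.00556% passed as higher in mutant and 0.00556% as lower, which is 1 gene each way. At an unadjusted p under 0.05 there was 1 collagen gene lower, Col8a2, and 1 higher, Col28a1, against backgrounds of 1.15% and 3.12% of genes. In 9 of the 35 genes the mutant libraries were the lowest pair, with no overlap, 25.7% against 14% of all genes tested, and in 3 they were the highest pair, 8.57% against 13.4%. The median log2 fold change (mutant minus wild type) was 0.000225 over the 35 genes and 0.00248 over all genes. It moved with the libraries used, to 0.0783 without wild-type 15, -0.161 without wild-type 20, 0.0245 without mutant 18 and -0.0732 without mutant 14. An exact two-sided permutation test of 2 libraries against 2 cannot give a p under 0.333, so each gene's test rests on variance shared across genes.

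Most collagen genes differed as much within a genotype as between genotypes. Wild-type 15 was above wild-type 20 in 29 of 35 genes and was the highest of the 4 libraries in 18. Wild-type 20 was the lowest in 14 and mutant 14 in 11. In 24 genes the difference between genotypes was smaller than that between the wild-type libraries, and in 21 it was smaller than that between the mutant libraries.

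**Figure D2:**
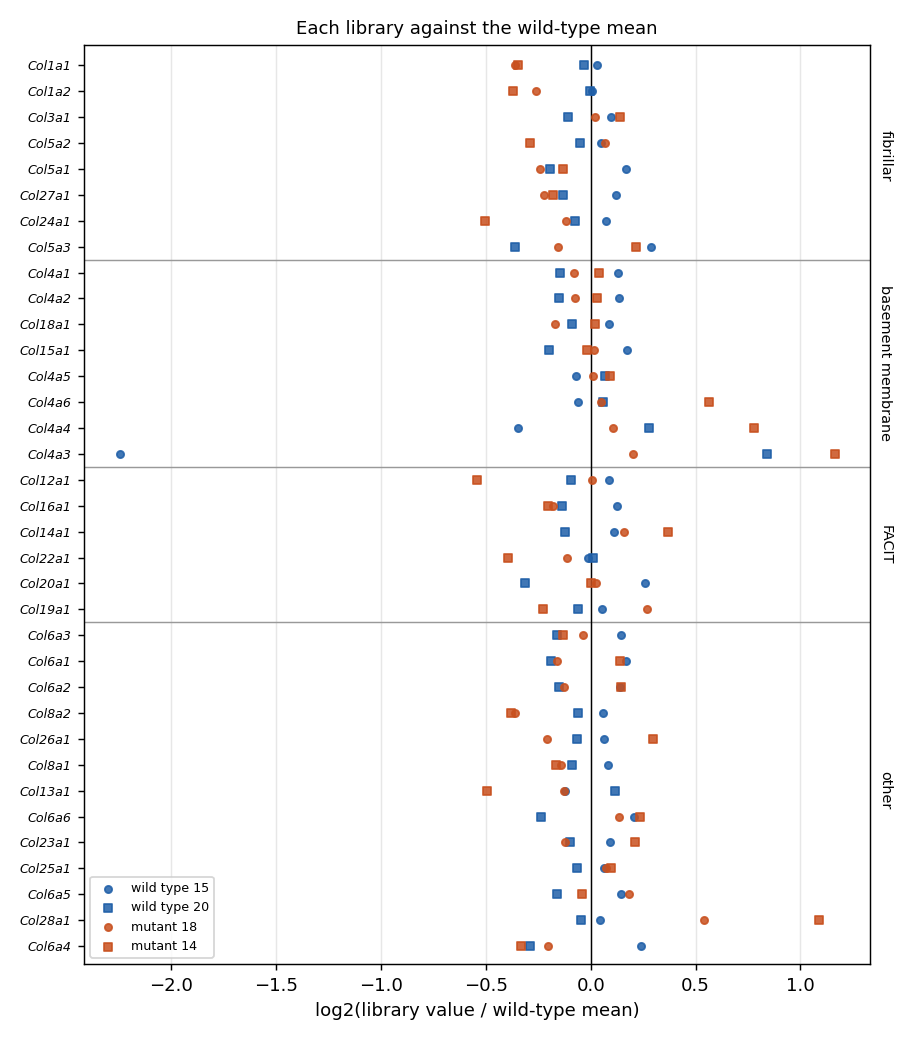
Each library's value as log2 of its ratio to the wild-type mean, for the 35 collagen genes grouped by type; the vertical line at 0 is the wild-type mean. The mutant marks of Col1a1, Col1a2 and Col8a2 lie together on the left and those of Col28a1 on the right, while basement membrane genes scatter around the line apart from the scarce Col4a3 and Col4a4 and from Col4a6 in mutant 14.

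The fibrillar genes held 4 of the 9 genes that lay lower with no overlap, Col1a1, Col1a2, Col24a1 and Col27a1, and none that lay higher. That is 50% of the 8 fibrillar genes lower and 0% higher, against 14% and 13.4% of all genes tested. The median log2 fold change of the 8 fibrillar genes was -0.185, which became -0.0654 with wild-type 15 left out and -0.32 with wild-type 20 left out. Col1a1 and Col1a2 encode the chains of type I collagen, the main protein of bone and dentin. On GRCm38 Col1a1 spans 94936224 to 94953042 on chromosome 11 and Col1a2 spans 4505618 to 4541543 on chromosome 6. Col1a1 was at 541155 and 519187 in wild-type 15 and 20 against 412514 and 417344 in mutant 18 and 14. Col1a2 was at 420900 and 417789 in wild type against 350569 and 323949 in mutant. For both chains every mutant library lay below every wild-type library, by more than the spread within either genotype. The fold of mutant over wild type was 0.783 for Col1a1 (log2 fold change -0.35, SE 0.45, limma adjusted p = 0.9999) and 0.804 for Col1a2 (-0.32, SE 0.42, adjusted p = 0.9999). With any library left out these log2 fold changes lay between -0.383 and -0.323 for Col1a1 and between -0.372 and -0.258 for Col1a2. Their standard errors follow the variance of other highly abundant genes, and without that trend they were 0.134 and 0.139, still with no call.

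The sum of the type I chains took 4.30% and 4.15% of the counts in wild-type 15 and 20 against 3.39% and 3.35% in mutant 18 and 14, a mutant over wild-type ratio of 0.792. The 33 other collagen genes summed to 482971, 410316, 432013 and 436898 in the same order, with genotypes overlapping and a ratio of 0.973. All 8 osteoblast markers (Sp7, Bglap, Ibsp, Alpl, Runx2, Dmp1, Phospho1 and Ifitm5) had a log2 fold change below 0, with a median of -0.485. Of these, 5 were at an unadjusted p under 0.05 (background 1.15%) and 5 lay lower with no overlap (background 14%). Their sum, at 110470 and 124624 in wild type against 116841 and 76849 in mutant, overlapped, and Ibsp made up most of it. The 3 odontoblast markers, of which Dmp1 is also in the osteoblast list, had a median log2 fold change of 0.118. Among them 2 were above 0 and overlapped, and 1, Dmp1, lay lower with no overlap (background 14%). None of the osteoblast and odontoblast markers was at 0, and their part in the type I values was not tested.

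Col3a1, which encodes the type III chain of soft connective tissue and vessel walls, was at 145701 and 126404 in wild-type 15 and 20 against 137980 and 150149 in mutant 18 and 14. The genotypes overlapped (log2 fold change 0.08, SE 0.30, adjusted p = 0.9999), and with wild-type 15 or wild-type 20 left out the value became 0.187 or -0.0176. The bases before the starts of Col1a2 and Col3a1 are shown because one of these fibre genes lay lower in mutant and the other did not. They are the 250 bases upstream of the RefSeq start on GRCm38, written 5′ to 3′ on the strand of the gene, from chr6:4505368-4505617 and chr1:45311288-45311537. Capitals mark the CCAAT box, the TATAAA element of some promoters and the GGGCGG core of a GC box, each on either strand.
Col1a2: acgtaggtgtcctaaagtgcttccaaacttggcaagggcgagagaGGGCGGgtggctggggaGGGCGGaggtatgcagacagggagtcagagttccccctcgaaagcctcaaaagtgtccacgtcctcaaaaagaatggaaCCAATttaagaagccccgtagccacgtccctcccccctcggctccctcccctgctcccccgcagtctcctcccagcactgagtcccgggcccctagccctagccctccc
Col3a1: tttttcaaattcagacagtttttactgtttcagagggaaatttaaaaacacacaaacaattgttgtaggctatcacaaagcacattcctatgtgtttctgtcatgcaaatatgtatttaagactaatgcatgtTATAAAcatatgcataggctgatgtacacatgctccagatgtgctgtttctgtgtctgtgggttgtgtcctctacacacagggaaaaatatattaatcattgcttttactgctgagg
The Col1a2 window held CCAAT at 109 bases before the start and GGGCGG at 205 and 188 bases. The Col3a1 window held TATAAA at 117 bases and neither of the other motifs. Its GC content was 35.2% and that of Col1a2 62.0%. CCAAT stood in 33.8%, TATAAA in 12.4% and GGGCGG in 32.7% of 32851 promoter windows of that length, and in 9, 2 and 18 of the 30 windows of 28 matched collagen genes. A matching set of letters is a description of the window and not a binding site. The RefSeq promoter table used here had no entry for Col1a1, Col4a3, Col5a2, Col12a1, Col14a1, Col22a1 and Col26a1.

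Type V collagen joins type I and III in the same fibres and sets their width. Col5a1 was at 52789, 41045, 39705 and 42787 in wild-type 15, wild-type 20, mutant 18 and mutant 14, and Col5a2 at 47799, 44586, 48433 and 37735. In each the genotypes overlapped. Col5a3 followed neither, at 2675, 1707, 1964 and 2543, with both extremes in wild type. Col24a1, a fibrillar chain found in forming bone, was at 4097 and 3698 in wild type against 3595 and 2750 in mutant. Its genotypes did not overlap (log2 fold change -0.31, SE 0.16, adjusted p = 0.9999), but the value was -0.501 without mutant 18 and -0.115 without mutant 14, the lowest library. Col27a1, a fibrillar chain known from cartilage and developing teeth, was at 4556 and 3831 in wild type against 3596 and 3704 in mutant.

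The 8 basement membrane genes all overlapped between genotypes, with a median log2 fold change of 0.033. That median was 0.126 without wild-type 15, -0.0146 without wild-type 20, 0.0709 without mutant 18 and 0.0197 without mutant 14. Col4a1 and Col4a2 encode the chains of the common type IV network and lie head to head on chromosome 8. Their RefSeq spans there (11198423 to 11312889 and 11312805 to 11449287) overlap. Col4a1 was at 25222 and 20838 in wild-type 15 and 20 against 21792 and 23687 in mutant 18 and 14. Col4a2 was at 14698 and 12058 in wild type against 12704 and 13667 in mutant. Both were highest in wild-type 15 and lowest in wild-type 20, with mutant values between (log2 fold changes -0.01, SE 0.18, and -0.01, SE 0.17). The interval that these errors leave is wide, so the values do not show that the genotypes were alike. The vessel gene markers Pecam1, Cdh5, Kdr, Tek, Emcn and Tie1 summed to between 11180 and 11705 over the 4 libraries. Of these 6, 3 had a log2 fold change above 0 and 3 below. Tie1 alone lay lower with no overlap (16.7%, background 14%), and 0 lay higher (background 13.4%).

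Col4a5 and Col4a6, which encode chains of epithelial and smooth muscle basement membranes, lie head to head on the X chromosome. Col4a5 was at 962, 1057, 1017 and 1077 in wild-type 15, wild-type 20, mutant 18 and mutant 14. Col4a6 was at 309, 336, 333 and 476, so mutant 14 alone was high (log2 fold change 0.31, SE 0.21, adjusted p = 0.9999), and the value was 0.05 without it and 0.565 without mutant 18. Keratinocyte markers were also highest in mutant 14, and their part in this value was not tested. Col4a3 and Col4a4, chains of kidney and other specialised membranes, were barely detected. Col4a3 ran from 1.05 in wild-type 15 to 11.1 in mutant 14, and Col4a4 was at 8.35, 12.9, 11.4 and 18.2 in wild-type 15, wild-type 20, mutant 18 and mutant 14. The products of Col15a1 and Col18a1 lie in the zone between basement membrane and fibres. Col18a1 was at 4958, 4389, 4159 and 4744 in the same order and Col15a1 at 3079 to 3991, each highest in wild-type 15.

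Of the 6 FACIT genes, Col16a1 and Col22a1 lay lower with no overlap and Col14a1 higher. These shares, 33.3% lower and 16.7% higher, stand against 14% and 13.4% of all genes tested, so the higher share was near its background. Col14a1, a fibre-surface chain of skin and tendon, was at 5715 and 4850 in wild-type 15 and 20 against 5895 and 6820 in mutant 18 and 14. The margin between wild-type 15 and mutant 18 was narrow (log2 fold change 0.27, SE 0.15, adjusted p = 0.9999). With wild-type 15, wild-type 20 or mutant 14 left out the log2 fold change became 0.386, 0.15 or 0.163. Of the 7 tendon and fibroblast markers (Scx, Tnmd, Mkx, Dpt, Pdgfra, Postn and Tcf21), 1 lay higher with no overlap, Dpt, and 1 lower, Scx. Each is 14.3% of the list, near the backgrounds of 13.4% higher and 14% lower. The median log2 fold change of these markers was -0.0859. Their sum, at 66832 and 77250 in wild type against 84636 and 67778 in mutant, overlapped, and Postn made up most of it. Their part in the Col14a1 value was not tested.

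Col12a1, the fibre-surface chain of tendon, ligament and bone surface, was at 36678, 32266 and 34585 in wild-type 15, wild-type 20 and mutant 18 and at 23680 in mutant 14. Its log2 fold change of -0.27 (SE 0.23) rested on mutant 14 and was 0.00769 without that library and -0.539 without mutant 18. Col22a1, found at junctions of muscle and tendon, was at 6193 and 6293 in wild type against 5770 and 4754 in mutant. Col16a1, of fibres in skin and other tissues, was at 10612 and 8867 in wild type against 8607 and 8462 in mutant. Its log2 fold change of -0.18 became -0.0552 with wild-type 15 left out and -0.314 with wild-type 20 left out. Col19a1 (178 to 251) and Col20a1 (171 to 254) were scarce and overlapped.

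Among the 13 other genes, Col8a2, Col8a1 and Col13a1 lay lower with no overlap and Col28a1 and Col25a1 higher. These shares, 23.1% lower and 15.4% higher, stand against 14% and 13.4% of all genes tested, so the higher share was near its background. Col8a2 and Col8a1 encode the chains of type VIII collagen, a short-chain network known from the cornea and vessel walls. Col8a2 was at 4496 and 4143 in wild-type 15 and 20 against 3366 and 3321 in mutant 18 and 14. The mutant libraries lay close together and well below wild type (fold 0.775, log2 fold change -0.37, SE 0.13, unadjusted p = 0.0227, limma adjusted p = 0.951). With any library left out its log2 fold change lay between -0.427 and -0.309. Col8a1 was at 2139 and 1900 in wild type against 1831 and 1799 in mutant, a narrower gap (log2 fold change -0.15, SE 0.13). The 250 bases before the RefSeq start of Col8a2 (chr4:126286544-126286793, GRCm38, 5′ to 3′ on the strand of the gene) are shown because this gene had the smallest p of the 35. Capitals mark the same motifs, here GGGCGG, which reads CCGCCC where it lies on the other strand.
Col8a2: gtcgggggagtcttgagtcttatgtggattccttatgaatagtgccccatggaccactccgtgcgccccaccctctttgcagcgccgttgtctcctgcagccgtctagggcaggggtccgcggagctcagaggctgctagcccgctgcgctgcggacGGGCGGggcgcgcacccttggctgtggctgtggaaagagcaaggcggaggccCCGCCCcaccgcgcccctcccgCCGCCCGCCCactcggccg
The window held GGGCGG at 93, 41, 19 and 15 bases before the start, the last 2 overlapping, and neither CCAAT nor TATAAA.

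Col28a1, known from the basement membranes around Schwann cells, was at 37.8 and 35.6 in wild type against 53.4 and 77.9 in mutant. The gene spans 7997100 to 8193709 on chromosome 6. Both mutant values were higher, at low levels (fold 1.75, log2 fold change 0.81, SE 0.34, unadjusted p = 0.0483, limma adjusted p = 0.9999). The value was 0.536 without mutant 14 and 1.08 without mutant 18. Of genes that mark Schwann cells, Sox10 was at 311 and 201 in wild type against 259 and 486 in mutant, and Cdh19 at 120.2 and 117 against 117 and 124. Both overlapped between genotypes, with Sox10, like Col28a1, highest in mutant 14, and their part in the Col28a1 value was not tested.

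Type VI collagen forms beaded filaments around cells of muscle, skin and cartilage. Col6a1 was at 27890, 21776, 22191 and 27377 in wild-type 15, wild-type 20, mutant 18 and mutant 14. Col6a2 was at 25428, 20787, 21183 and 25579, and Col6a3 at 46185, 37333, 40648 and 38101. Wild-type 15 and mutant 14 were high and the other libraries low for Col6a1 and Col6a2, so the genotypes overlapped fully. For Col6a3 wild-type 15 alone was high. Col6a4, Col6a5 and Col6a6, chains from a cluster on chromosome 9, were at 18.3 to 27.2, 87.7 to 111 and 1266 to 1757. Of these Col6a6, at 1720, 1266, 1639 and 1757, had a log2 fold change of 0.20 (SE 0.17), with wild-type 20 alone low, and of -0.0198 without that library and 0.422 without wild-type 15.

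The membrane-bound chain Col13a1, known from junctions of nerve and muscle, was at 1721 and 2032 in wild-type 15 and 20 against 1721 and 1331 in mutant 18 and 14. Wild-type 15 and mutant 18 differed by less than 1 count, so its lack of overlap rests on that margin (log2 fold change -0.31, SE 0.17). The value was -0.12 without mutant 14, -0.49 without mutant 18, -0.425 without wild-type 15 and -0.186 without wild-type 20. The membrane-bound Col25a1 was at 1273 and 1163 in wild type against 1283 and 1303 in mutant, again nearly touching. Col23a1 was at 1157 to 1459 and Col26a1 at 2621 to 3726, both highest in mutant 14 and lowest in mutant 18.

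Ratios of chains within a library do not depend on how the libraries were scaled. The ratio of Col3a1 to Col1a1 was 0.269 and 0.244 in wild-type 15 and 20 against 0.335 and 0.360 in mutant 18 and 14. Both mutant ratios were higher, by 0.438 on the log2 scale against a pooled SD of 0.0896 between libraries of a genotype, and by 0.366 to 0.511 with any library left out. The ratio of Col1a1 to Col1a2, chains of the same molecule, was 1.29 and 1.24 for wild type against 1.18 and 1.29 for mutant, and overlapped. The ratio of Col8a1 to Col8a2 was 0.476 and 0.459 for wild type against 0.544 and 0.542 for mutant, a log2 difference of 0.217 (pooled SD 0.0267) with no overlap. No test was made of these ratios.

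Other partner chains kept close to a fixed ratio whatever the genotype. Col4a1 over Col4a2 was 1.72, 1.73, 1.72 and 1.73 in wild-type 15, wild-type 20, mutant 18 and mutant 14, and the highest exceeded the lowest by 1.04%. Col6a1 over Col6a2 was 1.10, 1.05, 1.05 and 1.07, a spread of 4.7%. The remaining pairs varied more. Col6a1 over Col6a3 ran from 0.546 in mutant 18 to 0.719 in mutant 14, and Col5a1 over Col5a2 from 0.820 in mutant 18 to 1.13 in mutant 14. Col4a5 over Col4a6 was 3.12, 3.15 and 3.05 in the first 3 libraries and 2.26 in mutant 14.

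**Figure D3:**
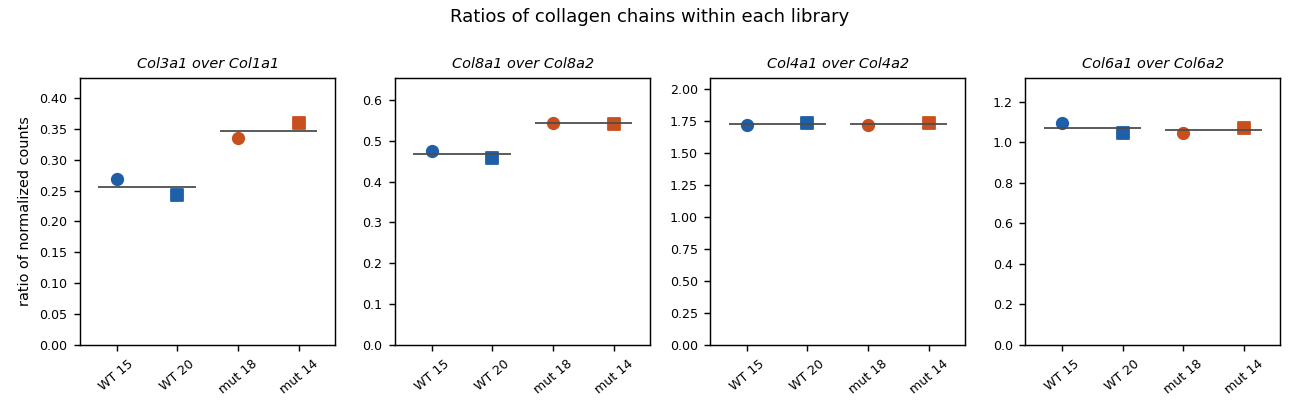
Ratio of normalized counts of chain genes within each library, with axes starting at 0; blue marks are wild type, orange marks mutant and lines the mean of each genotype. Col3a1 over Col1a1 and Col8a1 over Col8a2 are higher in both mutant libraries, and Col4a1 over Col4a2 is between 1.72 and 1.73 in all 4.

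The genes that modify, fold, trim, cross-link, cut, bind or partner collagens were read from the same fit. Of 61 measured, 0 passed at an adjusted p of 0.05 (limma), and at an unadjusted p under 0.05 there were 8 lower, against a background of 1.15%, and 0 higher. In 26 the genotypes did not overlap and mutant was lower (42.6%, background 14%), and in 0 it was higher without overlap (background 13.4%). The median log2 fold change was -0.158, and -0.133 and -0.22 without wild-type 15 and 20 and -0.207 and -0.114 without mutant 18 and 14. The counts were uneven across roles. Lower with no overlap were 5 of 6 cross-linking genes, 5 of 9 of folding and export, 8 of 15 of prolyl and lysyl modification and 4 of 8 of procollagen processing. Of collagenases it was 1 of 5, of receptors 2 of 7 and of basement membrane partners 1 of 11. These groups were not tested against each other.

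Creb3l1, a transcription factor that activates type I collagen genes in osteoblasts, was at 4414 and 4425 in wild-type 15 and 20 against 3098 and 3374 in mutant 18 and 14 (log2 fold change -0.45, SE 0.13, limma adjusted p = 0.718). Loxl4, an enzyme that cross-links collagen, was at 2882 and 2935 in wild type against 2143 and 2184 in mutant (-0.43, SE 0.125, adjusted p = 0.742). Adamts3, which trims the amino end of procollagen, was at 740 and 728 in wild type against 528 and 516 in mutant (-0.49, SE 0.14, adjusted p = 0.745). In these 3 genes the gap between genotypes exceeded the spread within either. The collagen receptor subunits Itga10 and Itga11 were at 2987 and 2703 against 2205 and 1873, and at 1754 and 1708 against 1507 and 1163. The chaperone Fkbp10 was at 9885 and 10236 against 8091 and 7624, and the cross-linker Loxl2 at 11470 and 10178 against 8973 and 7745. Lama1, a laminin chain of early basement membranes, was at 303 and 239 against 168 and 182. The general collagen chaperone Serpinh1 was at 45983 and 51186 in wild type against 40780 and 36737 in mutant. The collagenase Mmp13 overlapped, at 17121, 25376, 28724 and 11083. Cartilage markers (Acan, Sox9, Comp, Matn1, Col2a1 and Hapln1), tissue that also uses these enzymes, had 5 of 6 lower with no overlap (background 14%) and summed to 48689, 36487, 33394 and 28264, and their part in these values was not tested.

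**Figure D4:**
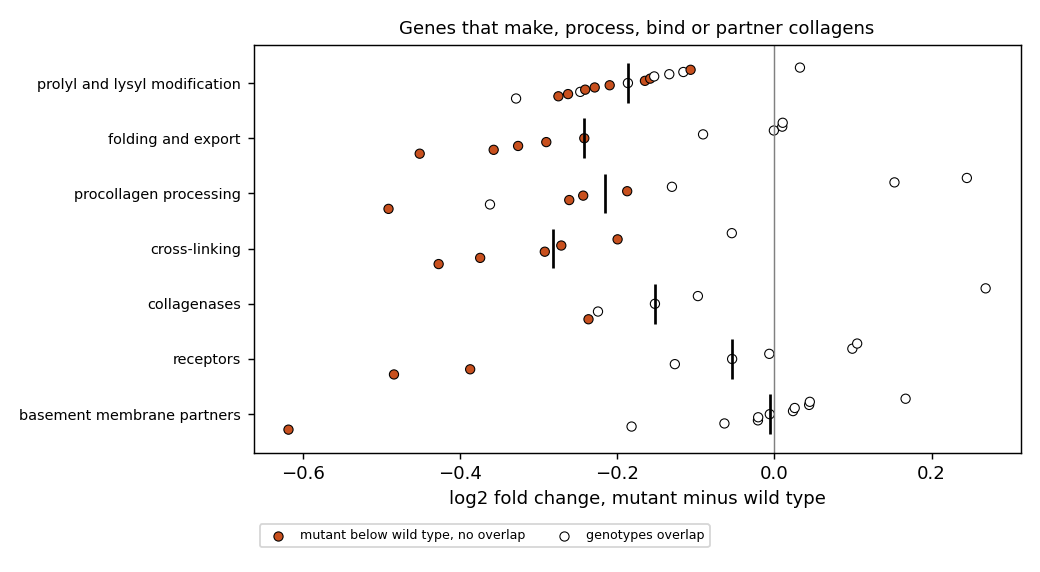
Log2 fold change (mutant minus wild type) of 61 genes that make, process, bind or partner collagens, by role; filled marks are genes lower in mutant with no overlap between genotypes, open marks overlap, and vertical bars are medians. Filled marks gather left of 0 in the cross-linking and the folding and export rows, where the medians are -0.281 and -0.242, and basement membrane partners lie around 0.

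Among 12483 genes with a mean of at least 100, likeness to the Col1a1 profile over the 4 libraries was measured as the root mean square difference of log2 values centred on each gene's mean. The 5 nearest were Dlx6 (0.016), Parp3 (0.0172), Col8a2 (0.0253), Cln3 (0.0286) and Cdr2l (0.0293). The homeobox gene Dlx6 was at 276 and 270.01 in wild type against 211 and 210.4 in mutant. Col8a2 was the only collagen gene among the 5. With 4 libraries many genes can share such a profile, and likeness here says only that the values lay alike.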

How the data were processed

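Polyadenylated RNA was measured in 4 libraries, per the labels' protocols with a strand-keeping kit. The authors deposited 1 signal value per gene and library, a normalized count. DESeq2 and build mm10 are named, without a role, per the submitters' processing notes. The aligner, counter and strand setting were not given in the sources used here. Between 32% and 34.6% of values above 0 were whole multiples (within 0.1) of the commonest low value, so reads were not recovered, depth is unknown and no count test was run. The members and lists were chosen with earlier results of these data known.

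Values were transformed to log2(value + 0.5), which understates changes of low genes. Genes with a mean of at least 1 (17979 of 24972) were fitted for genotype by limma (version 3.58.1, R 4.3.3) using a variance trend and Benjamini-Hochberg adjustment at 0.05, after a test on simulated data. Library codes are not shared between genotypes, so nothing was paired. Per-library values are given for the 3 most abundant genes of each type, those with an unadjusted p under 0.05 and the 5 largest changes each way with a mean of at least 10, with the other genes given more briefly; of the collagen-making genes the 8 with the smallest p under 0.05 were named by rule, and Serpinh1 and Mmp13 after their values were seen. Coding lengths are the longest per gene in GENCODE M21 (GRCm38, as mm10), and positions and promoters are from RefSeq on GRCm38. Exons of 10 of the 35 genes shared at most 5.65% of their bases with another gene. Alternatives covered scaling, filter, pseudocount, shrinkage and each library left out. Some genes of the marker lists are not reported here.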

Additional observations from a re-analysis of the deposited data

How the results depend on the processing

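Over 8 alternatives of scaling, filter, pseudocount and shrinkage, the 27 genes named by rule (19 collagen and 8 collagen-making) kept their direction, and the counts with no overlap stayed at 9 lower and 3 higher collagen genes and 26 lower collagen-making genes. Genes called in the whole table went from 2 to 1 with no filter, 4 with a pseudocount of 1, 1 with no variance trend and 4 with robust shrinkage, and to between 0 and 6 with each library left out. Collagen genes at an unadjusted p under 0.05 went from 2 to 1 with no filter and 1 with no variance trend, and to between 0 and 3 with each library left out. With each library left out, genes of the whole table at that p numbered from 447 to 1220. Medians then ran from -0.161 to 0.0783 for the 35 collagen genes, -0.22 to -0.114 for collagen-making genes, -0.32 to -0.0654 for fibrillar, -0.0146 to 0.126 for basement membrane, -0.243 to 0.03 for FACIT and -0.127 to 0.142 for other types.

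Leaving out each library turned the direction of 9 of the 19 collagen genes named by rule. Their ranges were -0.0176 to 0.187 for Col3a1, -0.151 to 0.125 for Col4a1, -0.158 to 0.128 for Col4a2, -0.166 to 0.0245 for Col18a1, -0.539 to 0.00769 for Col12a1, -0.231 to 0.0761 for Col6a3, -0.178 to 0.179 for Col6a1, -0.127 to 0.163 for Col6a2 and -0.0198 to 0.422 for Col6a6. Where a setting moved a count, the cause was not tested. With a library left out, its genotype has 1 library, assumed to vary like the other genotype. No paired analysis was possible because the library codes are not shared between genotypes. Read depth is unknown, so the precision of the scarce genes (Col4a3, Col4a4, Col6a4 and Col28a1) cannot be given from counting.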
